A study of Mus musculus with 15 samples.

Results

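Genes of glucuronosyltransferases and sulfotransferases were described here across mouse liver. The group held the protein-coding genes of the deposited table whose symbol begins with Ugt or Sult and a digit, and it had 33 members among 24965 genes, 20 of them Ugt and 13 Sult genes. No symbol stood on more than 1 row. These enzymes carry out conjugation, the step that makes lipophilic compounds soluble. Ugt enzymes sit in the endoplasmic reticulum and transfer glucuronic acid from UDP-glucuronic acid to bilirubin, steroids, bile acids and drugs. Sult enzymes are cytosolic and transfer sulfate from the donor PAPS (3'-phosphoadenosine 5'-phosphosulfate) to steroids, thyroid hormone, bile acids and catecholamines. Both families are abundant in hepatocytes, and the conjugates leave through export pumps into bile and blood.

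RNA came from livers of male C57BL/6J mice whose Gata4 alleles were floxed (Gata4 fl/fl). Gata4 encodes a transcription factor with zinc fingers. At 8 weeks of age they received adeno-associated virus of serotype 8, either carrying AAV8-Tbg-Cre, in which Tbg drives Cre in hepatocytes (Gata4LKO, called labelled knockout here), or empty (control), and livers were taken 7 days later. The compared livers were 4 labelled knockout and 4 control, all fasted for 12 h. The same model also took in 3 labelled knockout and 4 control livers of mice fasted for 12 h and then refed for 12 h with a diet of 69% sucrose. All 15 mice carried the floxed alleles, and only the labelled knockout mice received Cre. The values are the authors' own fitted results per gene, so a value for each liver cannot be given, and a level is a mean over all 15 libraries, fasted and refed. The header does not name the groups compared. A reading derived from genes that had a single read left 2 possibilities, labelled knockout minus control in fasted livers and refed minus fasted in control mice. The first was taken, since the table is named for genotype, and every direction below rests on it. The estimate of Gata4 itself lay above 0 in the authors' deposited table, not below it. Its log2 fold change (shortened to log2 change from here) was 0.31 ± 0.15 (SE). The unadjusted p of Gata4 was 0.0324 and the adjusted p 0.361 in the authors' DESeq2 results (Wald test). Gata4 was thus higher in livers labelled knockout at an unadjusted p under 0.05, and did not pass after adjustment. Which part of the gene Cre removes is not in the labels, so a gene-level count may miss a partial deletion.

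Of the 33 genes, 27 were abundant enough to have an adjusted p. In livers labelled knockout 2 of these rose against control livers, both of the Ugt2 family, 0 fell, and 25 did not pass an adjusted p under 0.05 in the authors' deposited table. The share called was 7.41% of the tested members and 2.19% of all 13335 tested genes (0.585% higher and 1.6% lower). At an unadjusted p under 0.05, 9 of 27 members stood apart (8 higher and 1 lower) in the authors' deposited table, or 33.3%, against 11.4% of all tested genes (5.17% higher and 6.21% lower). The median log2 change of the 27 members was 0.13, and that of all tested genes 0.01. It was 0.26 for the 19 tested Ugt genes and -0.07 for the 8 tested Sult genes. The members were chosen with earlier results of these data known, so these shares are a description. In the sample titles the fasted mice of each group share a leading number that the other group lacks, and its meaning is not given. Whether the mice of a group shared a cage or a day therefore cannot be told apart from the genotype label. The p-values set the difference between the groups against the spread among these mice alone, in a model fitted over all 15 libraries.

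**Figure D1:**
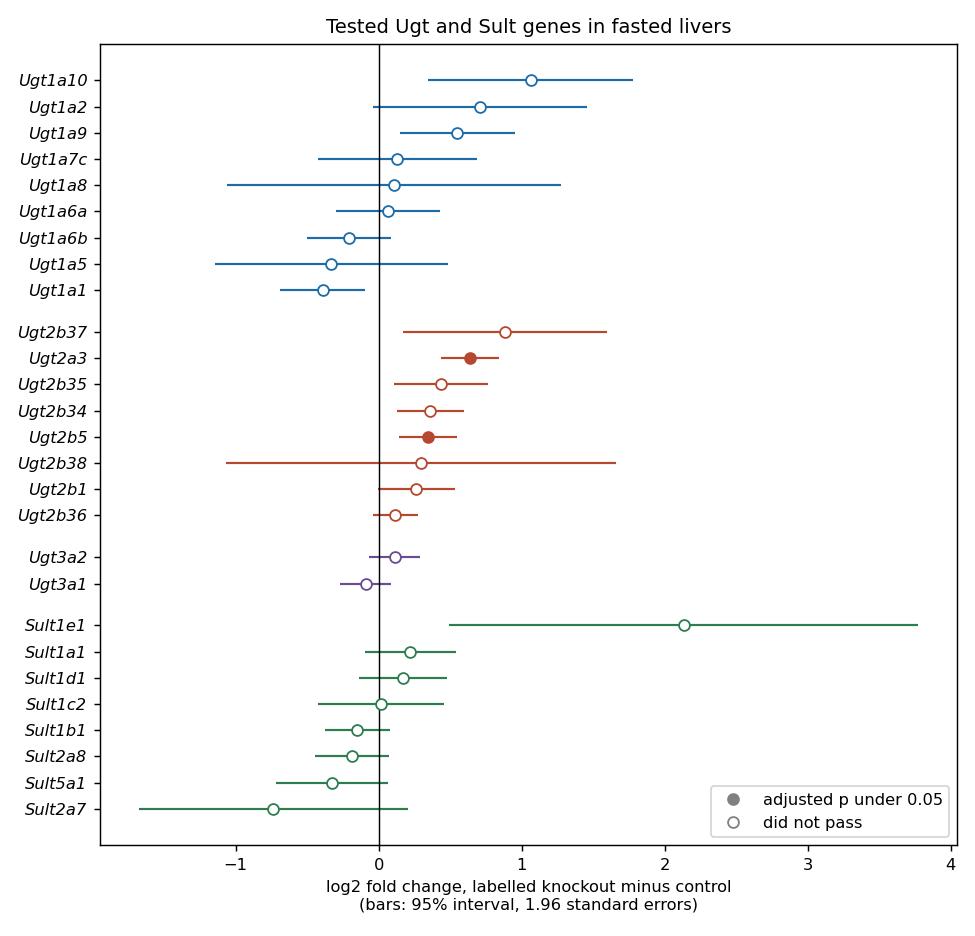
Log2 fold change (x axis, labelled knockout minus control, fasted livers) of the 27 tested Ugt and Sult genes by family (rows), with bars for the 95% interval. Filled points mark Ugt2a3 and Ugt2b5, the genes with an adjusted p under 0.05, and all 8 Ugt2 points lie right of 0.

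The 33 genes covered a wide range of levels. Their means summed to 93043 normalized counts, or 0.517% of the table, and the 13 members whose mean reached 1000 held 97.3% of that sum. Per kilobase of exon that overlaps no exon of another gene on the same strand, Ugt2b5 had the highest level, at 7123 mean normalized counts per kb. It was followed by Ugt2b36 at 5227 and Ugt2b1 at 5060 mean normalized counts per kb, and then by Sult2a8 at 3930, the highest of the sulfotransferases. Ugt1a9 and Ugt1a1 led their locus on the same scale, with 3790 and 1995 mean normalized counts per kb. For Ugt1a genes this scale assumes that reads of the exons shared within the locus were not counted. Whether they were is not known, and if they were, the Ugt1a levels are too high next to the other genes. Levels carry no error here, since the spread over livers is not in the table, and neighbours in this order may not differ. At the bottom of the scale, 6 members had no adjusted p and means between 0.0627 and 1.85 normalized counts. These were Ugt8a, the galactosyltransferase that makes galactosylceramide, together with Sult2a1, Sult2a5, Sult2b1, Sult3a1 and Sult6b1.

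For 5 of those genes the mean could be resolved into whole reads. Sult2b1, which sulfates cholesterol and related sterols, had 8 reads in 6 of the 15 libraries. Sult2a1, a sulfotransferase of steroids and bile acids that is known to be female-biased in mouse liver, had 6 reads in 5 libraries. Sult3a1, another female-biased gene of mouse liver, had 5 reads in 4 libraries. Sult6b1 had 5 reads in 2 libraries and Sult2a5 had 1 read in 1 library. These genes were close to the lowest detectable level in these male livers, and their fold changes are not described.

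**Figure D2:**
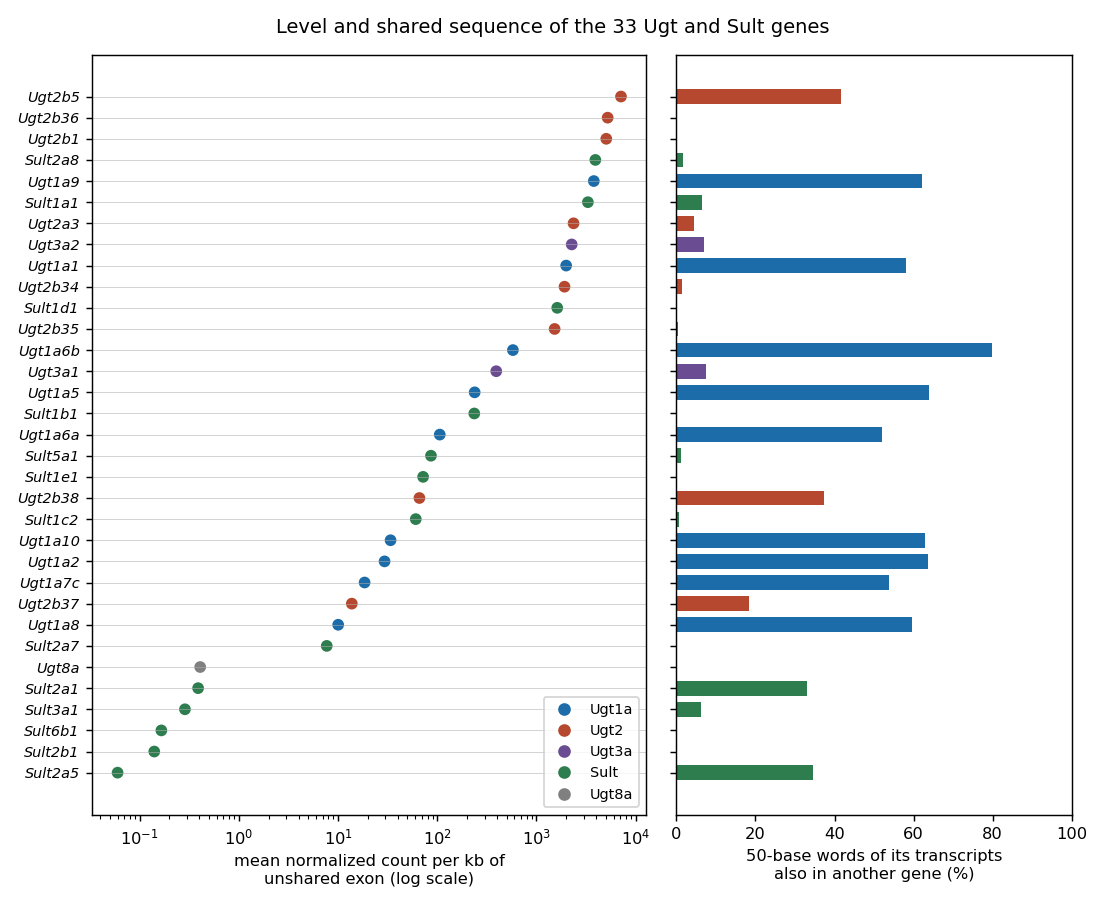
Left, mean normalized count per kb of exon that overlaps no same-strand exon of another gene (log scale, 15 libraries), for all 33 genes in order of level. Right, percent of each gene's 50-base words that also occur in transcripts of another gene. Ugt2b5 has the highest level, and every Ugt1a gene shares more than 50% of its words.

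Estimates of the Ugt2 genes all lay above 0, that is, higher in livers labelled knockout than in control livers. This held for 8 of 8 tested, against 51.9% of all tested genes, with a range of 0.12 to 0.88 and a median of 0.35 on the log2 scale. By the adjusted p, 2 of the 8 rose (25%), against 0.585% of all tested genes called higher. An unadjusted p under 0.05 was found for 5 of 8 (62.5%), against 11.4% of all tested genes. The Ugt2 genes lie on chromosome 5, in a run of 11 members over 702 kb (86889767 to 87591594, mm10) that ends with Sult1b1, Sult1d1 and Sult1e1. Being measured in the same livers, and in part from near-identical sequence, these 8 estimates are not independent of each other.

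Ugt2a3 rose in livers labelled knockout and had the smallest p of the 27 tested members. The gene (ENSMUSG00000035780, chromosome 5, 87324972 to 87337195, minus strand, mm10) encodes a glucuronosyltransferase whose human counterpart acts on bile acids. Its mean was 5014 normalized counts, with a log2 change of 0.64 ± 0.10 (SE) per the authors' deposited table. That is a level 1.56-fold higher in livers labelled knockout than in control livers, with a 95% interval from 1.36 to 1.79. The adjusted p was 2.44e-07 in the authors' deposited table (DESeq2 Wald test, Benjamini-Hochberg adjustment), and the gene ranked 23 of 13335 by p. Its standard error corresponds to a spread between livers of about 0.14 on the log2 scale, if both groups of 4 vary alike. That error was fitted over all 15 libraries, fasted and refed, so the figure is not a spread measured in the fasted livers. The coding sequence of Ugt2a3 was 65.7% to 67.8% identical to those of the tested Ugt2b genes. Of its 50-base words 4.55% occurred in another gene. Genes sharing such words included Ugt2a1 and Ugt2a2, which are not members and were not aligned.

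Ugt2b5 also rose, by less. It encodes one of the main Ugt2b enzymes of mouse liver, and the Ugt2b enzymes as a group act on steroids and many drugs. With a mean of 13235 normalized counts it was the member of highest mean (ENSMUSG00000054630, chromosome 5, 87124960 to 87140318, minus strand). Its log2 fold change was 0.35 ± 0.10 (SE) per the authors' deposited table, a level 1.27-fold higher in livers labelled knockout (95% interval 1.10 to 1.46). The adjusted p was 0.0394 in the authors' deposited table by the DESeq2 Wald test, and the gene did not pass in 3 of the 7 other settings of the adjustment or test, so that its call lies near the threshold. Of its 50-base words 41.7% occurred in Ugt2b36, Ugt2b37 or Ugt2b38, and its coding sequence was 97.0% identical to Ugt2b38 and 94.7% to Ugt2b37. Since the read counter is not given in the sources used here, how reads common to these genes were assigned is not known, and the values of Ugt2b5, Ugt2b37 and Ugt2b38 are uncertain to that extent.

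The other Ugt2b genes did not pass. Ugt2b34, the first member of the run, came closest, with a log2 change of 0.36 ± 0.12 (SE), a mean of 8279 normalized counts and an adjusted p of 0.0875 in the authors' deposited table (DESeq2). Ugt2b35, the one member of the run on the plus strand, had 0.44 ± 0.17 (SE) and an adjusted p of 0.190 in the authors' deposited table (DESeq2). Ugt2b1, with a mean of 13020 normalized counts, had a log2 change of 0.26 ± 0.14 (SE) per the authors' deposited table, and its interval ran from -0.01 to 0.53. Ugt2b36 was the member of the family with the smallest estimate, at 0.12 ± 0.08 (SE) per the authors' deposited table, and its interval from -0.04 to 0.28 leaves room for a rise of at most 1.21-fold. These 4 abundant genes thus had small standard errors, and none of their estimates exceeded that of Ugt2a3. The scarce members Ugt2b37 and Ugt2b38, with means of 26.1 and 125 normalized counts, had log2 changes of 0.88 ± 0.36 and 0.30 ± 0.70 (SE) per the authors' deposited table. Whether the change of Ugt2a3 differs from that of its neighbours was not tested, because the table gives no values per liver.

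**Figure D3:**
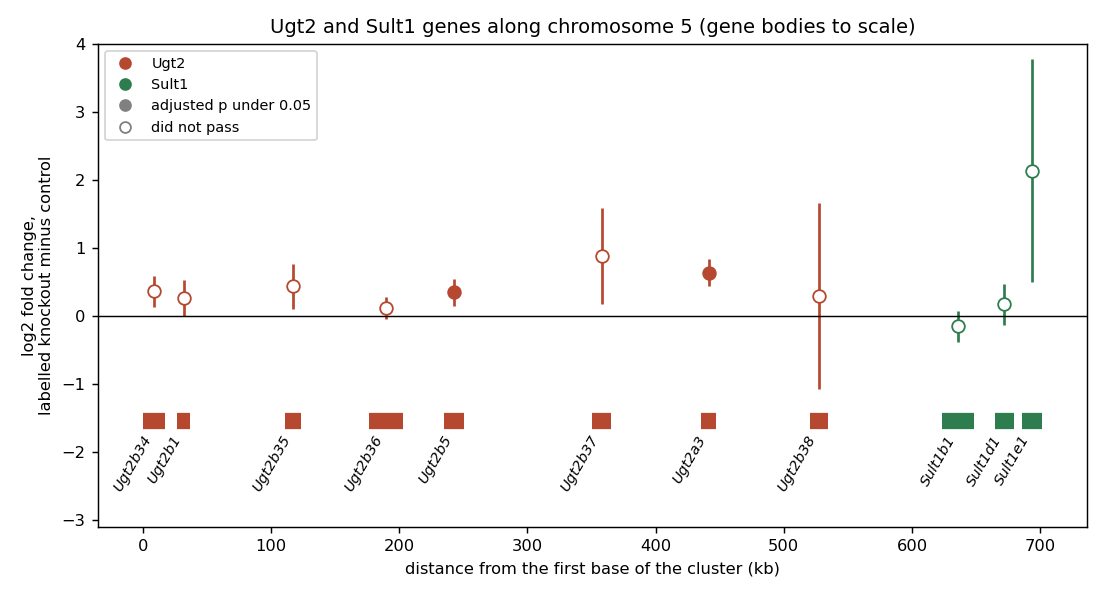
Ugt2 and Sult1 genes along chromosome 5: the x axis is the distance in kb from the first base of the run, bars at the bottom are gene bodies to scale, and points are log2 fold changes (labelled knockout minus control) with 95% intervals. The 8 Ugt2 estimates all lie above 0, and of the 3 Sult1 genes Sult1e1 is highest, with the widest interval.

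The sequences upstream of the genes that rose are shown with those of the 2 genes most like Ugt2b5, to set like and unlike members side by side. Each runs 5' to 3' from 250 bases before to 50 after the annotated start (RefSeq, GRCm38.p6), all on the minus strand of chromosome 5. The regions are chr5:87337146-87337445 for Ugt2a3, chr5:87140291-87140590 for Ugt2b5, chr5:87254739-87255038 for Ugt2b37 and chr5:87424154-87424453 for Ugt2b38. Capitals mark the letters AGATAA, with T also allowed as the first letter and G as the last, which GATA factors are known to bind, and GTTAAT, one arm of the site of the hepatocyte factor HNF1, on either strand.
Ugt2a3: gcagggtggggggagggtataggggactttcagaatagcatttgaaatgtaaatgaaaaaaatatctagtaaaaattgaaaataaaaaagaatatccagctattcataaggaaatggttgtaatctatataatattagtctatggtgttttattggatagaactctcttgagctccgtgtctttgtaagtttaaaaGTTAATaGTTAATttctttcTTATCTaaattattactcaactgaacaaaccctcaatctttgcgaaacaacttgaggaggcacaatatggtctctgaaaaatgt
Ugt2b5: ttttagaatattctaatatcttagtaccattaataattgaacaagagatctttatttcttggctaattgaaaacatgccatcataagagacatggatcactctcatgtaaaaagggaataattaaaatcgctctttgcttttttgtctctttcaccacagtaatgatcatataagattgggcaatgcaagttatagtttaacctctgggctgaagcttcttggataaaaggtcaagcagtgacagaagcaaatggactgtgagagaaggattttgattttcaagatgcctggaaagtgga
Ugt2b37: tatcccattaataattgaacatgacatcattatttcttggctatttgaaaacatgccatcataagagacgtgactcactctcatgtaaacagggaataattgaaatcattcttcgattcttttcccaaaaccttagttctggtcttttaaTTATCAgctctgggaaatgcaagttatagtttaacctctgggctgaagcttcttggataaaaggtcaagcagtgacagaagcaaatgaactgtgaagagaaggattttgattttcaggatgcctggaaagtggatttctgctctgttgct
Ugt2b38: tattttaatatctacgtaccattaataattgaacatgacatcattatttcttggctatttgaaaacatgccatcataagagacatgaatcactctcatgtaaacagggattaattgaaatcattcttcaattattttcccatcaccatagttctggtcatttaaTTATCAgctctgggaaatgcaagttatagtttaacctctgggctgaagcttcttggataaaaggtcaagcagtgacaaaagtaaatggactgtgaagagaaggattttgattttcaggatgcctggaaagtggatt
The Ugt2a3 sequence holds GTTAAT at 54 and at 47 bases before the start and a GATA match at 34 bases before it. In the Ugt2b5 sequence neither set of letters was found. Ugt2b37 and Ugt2b38 each hold 1 GATA match, at 100 and 86 bases before the start. The 2 matches lie in the same run of letters, so the distances differ with the place of the annotated start. Their sequences were 76.2% and 84.2% identical to that of Ugt2b5, over whole windows that are offset in the same way. Over the members, 29 of 33 matched a promoter in the table, with 32 start sites in all, and 15 of those 32 held a GATA match (46.9%) against 29.8% of all 32851 promoters. GTTAAT was found in 9 of 32 (28.1%) against 7.10% of all promoters. The full HNF1 palindrome, of which GTTAAT is one arm, was in 0 of the 32 and 3 of all promoters. The letters TGACNNNGC of the antioxidant response element were in 0 of 32, against 12.4% of all promoters, and GCGTG, the core bound by the aryl hydrocarbon receptor, in 7 of 32 (21.9%), against 32.4%. CAAAGTCCA, a form of the HNF4 site, was in 1 of 32, of Sult1b1, against 0.475% of all promoters. The comparison with all promoters was not matched for base composition. The 32 windows also include related ones, such as those of Ugt2b37 and Ugt2b38, which were 86.9% identical. These letters describe short windows only and do not show binding.

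Ugt1a genes gave estimates on both sides of 0. The 9 members share 1 locus on chromosome 1: each has a first exon of its own, and the remaining exons are common to all. In the annotation used here a transcript placed under Ugt1a7c also starts with the first coding exon of Ugt1a6a, so that the coding sequences of the pair were 100% identical over 1593 bases in that form. In the annotation 50.3% to 60.6% of each gene's exonic bases were shared with other genes of the locus. Reads from the common exons cannot be assigned to 1 gene, so the values rest on first exons to an extent that depends on the read counter. An antisense gene, Gm20528, also overlaps exons of all 9, and the strand setting of the counting is not known. By DESeq2 0 of 9 passed in the authors' deposited table, against 2.19% of all tested genes, so this count lies near the background. An unadjusted p under 0.05 was found for 3 of the 9 (2 higher and 1 lower), against 11.4% of all tested genes. Estimates above 0 numbered 6 of 9, against 51.9%.

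Ugt1a1, the enzyme that conjugates bilirubin (ENSMUSG00000089960, chromosome 1, 88211959 to 88218997, plus strand), was the one member with an interval wholly below 0. It had a mean of 1821 normalized counts, a log2 change of -0.39 ± 0.15 (SE) and an adjusted p of 0.190 in the authors' deposited table (DESeq2). Ugt1a9, which conjugates phenols and many drugs (ENSMUSG00000090175, chromosome 1, 88070800 to 88218997), averaged 3332 normalized counts, with a log2 change of 0.55 ± 0.21 (SE) per the authors' deposited table. Its adjusted p was 0.169 in the authors' deposited table (DESeq2), so the 2 most abundant genes of the locus had estimates of opposite sign and neither passed. The difference between them was not tested.

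Their upstream sequences, on the plus strand of chromosome 1 (chr1:88211709-88212008 for Ugt1a1 and chr1:88070529-88070828 for Ugt1a9), are shown because these 2 start sites feed the same common exons. Capitals mark the same GATA and GTTAAT letters.
Ugt1a1: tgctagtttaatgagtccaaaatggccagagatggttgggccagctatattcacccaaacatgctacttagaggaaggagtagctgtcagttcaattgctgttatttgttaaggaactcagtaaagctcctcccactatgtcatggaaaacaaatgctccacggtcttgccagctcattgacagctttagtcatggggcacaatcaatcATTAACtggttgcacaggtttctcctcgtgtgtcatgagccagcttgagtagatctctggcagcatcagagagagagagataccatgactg
Ugt1a9: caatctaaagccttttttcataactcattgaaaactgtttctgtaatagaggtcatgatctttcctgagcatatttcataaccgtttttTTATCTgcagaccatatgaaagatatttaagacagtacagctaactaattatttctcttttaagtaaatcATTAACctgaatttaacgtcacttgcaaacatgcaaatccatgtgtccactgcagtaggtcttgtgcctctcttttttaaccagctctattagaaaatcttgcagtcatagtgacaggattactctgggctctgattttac
Both hold GTTAAT on the reverse strand, at 41 bases before the start in Ugt1a1 and at 91 in Ugt1a9. Only the Ugt1a9 window of this pair holds a GATA match, at 161 bases before the start.

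Of the remaining Ugt1a genes, Ugt1a10 had a log2 change of 1.06 ± 0.37 (SE), a mean of only 32.1 normalized counts and an adjusted p of 0.107 in the authors' deposited table (DESeq2). Ugt1a2 followed, at 0.71 ± 0.38 (SE), with a mean of 26.5 normalized counts, in the authors' deposited table. Both are scarce in these livers next to Ugt1a9. Ugt1a6a and Ugt1a6b, a pair of near-identical enzymes for planar phenols, had log2 changes of 0.07 ± 0.18 and -0.21 ± 0.15 (SE) per the authors' deposited table. Their coding sequences were 98.4% identical, and 79.8% of the 50-base words of Ugt1a6b occurred in other genes. Under such an annotation reads of the first coding exon of Ugt1a6a also match Ugt1a7c, so the values of this pair are uncertain. Ugt1a5, Ugt1a7c and Ugt1a8 had log2 changes of -0.33 ± 0.42, 0.13 ± 0.28 and 0.10 ± 0.60 (SE) per the authors' deposited table. The interval of Ugt1a5 includes a halving, and that of Ugt1a8 both a doubling and a halving, so changes of that size are not excluded.

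The Ugt3a pair was measured with small errors and showed no change that passed. Ugt3a enzymes differ from the others in that the human forms use UDP-N-acetylglucosamine, UDP-glucose or UDP-xylose in place of UDP-glucuronic acid. Ugt3a2, with a mean of 7038 normalized counts, had a log2 change of 0.11 ± 0.09 (SE), and Ugt3a1, with 1051, had -0.09 ± 0.09 (SE), in the authors' deposited table. Their intervals ran from -0.07 to 0.29 and from -0.27 to 0.09, which is 0.956-fold to 1.22-fold for Ugt3a2 and 0.831-fold to 1.06-fold for Ugt3a1. Both genes lie on chromosome 15, and their coding sequences were 93.2% identical.

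No sulfotransferase gene passed. In the authors' DESeq2 results 0 of 8 tested Sult genes were called, and 1 had an unadjusted p under 0.05 in the authors' deposited table. The shares of all tested genes were 2.19% and 11.4%, so both counts lie near the background. Of the 8 estimates 4 were above 0 and 4 below. The most abundant was Sult2a8 (chromosome 7, 14410686 to 14446769), a bile acid sulfotransferase of mouse liver, with a mean of 12904 normalized counts. Its log2 change of -0.19 ± 0.13 (SE) per the authors' deposited table had an interval from -0.44 to 0.07. Its neighbour Sult2a7, with a mean of 9.84 normalized counts, had -0.74 ± 0.48 (SE) per the authors' deposited table.

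Sult1e1, the estrogen sulfotransferase, had the largest estimate of all tested members and did not pass. Its mean was 89.5 normalized counts, with a log2 change of 2.13 ± 0.84 (SE), an unadjusted p of 0.0108 and an adjusted p of 0.207 in the authors' deposited table (DESeq2 Wald test). The estimate corresponds to a level 4.39-fold higher in livers labelled knockout, with a 95% interval from 1.41 to 13.7. By the same conversion as for Ugt2a3, that standard error corresponds to a spread between livers of about 1.18 on the log2 scale, the widest of the tested members. This too is not a spread measured in the fasted livers. Values per liver would be needed to say how many livers carried the difference. The gene (ENSMUSG00000029272, chromosome 5, 87575969 to 87591594, minus strand) lies at the far end of the run that begins with Ugt2b34, and none of its 50-base words occurred in another gene.

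The other Sult1 genes lay close to 0. Sult1a1, which sulfates phenols and overlaps Sgf29 on the other strand, had a log2 change of 0.22 ± 0.16 (SE) and a mean of 4979 normalized counts in the authors' deposited table. Sult1d1, which in mouse sulfates dopamine and other catecholamines, had 0.17 ± 0.16 (SE) and a mean of 3988 normalized counts in the authors' deposited table. Sult1b1, which acts on thyroid hormones, had -0.15 ± 0.12 (SE) and a mean of 657 normalized counts in the authors' deposited table, and Sult1c2 had 0.02 ± 0.22 (SE) and 112. Sult5a1, on chromosome 8, had a log2 change of -0.33 ± 0.20 (SE) per the authors' deposited table. The intervals of these 5 genes left out both a doubling and a halving.

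**Figure D4:**
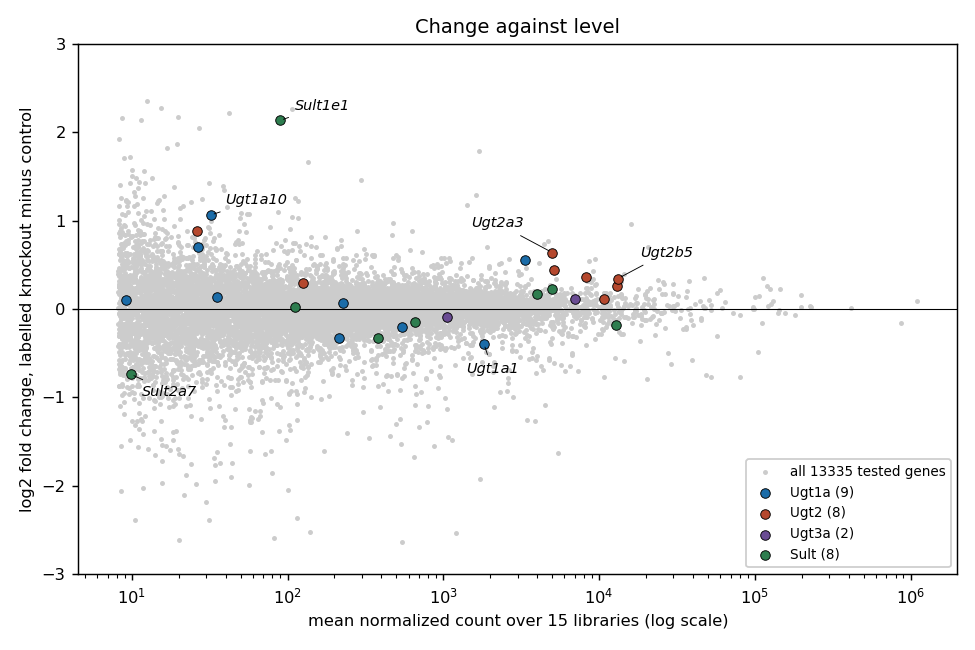
Log2 fold change (y axis, labelled knockout minus control) against mean normalized count over 15 libraries (x axis, log scale) for all 13335 tested genes in grey, of which 11 lie outside the y range, and the 27 tested members in colour. Ugt2a3 and Ugt2b5 lie among the abundant genes, while Ugt1a10 and Sult1e1 lie where the grey cloud is wide.

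Standard errors ran from 0.08 for Ugt2b36 to 0.84 for Sult1e1, and were at most 0.21 for the 13 members whose mean reached 1000. Of these 13, 2 were called (15.4%), both higher, against 3.82% of all 2384 tested genes of that level (1.13% called higher), and 6 had an unadjusted p under 0.05 (46.2%, against 15.9%). Estimates above 0 made up 10 of the 13 (76.9%), against 57.3% at that level. Of the 14 scarcer members 0 were called in the authors' DESeq2 results and 3 had an unadjusted p under 0.05 in the authors' deposited table. Among all 10951 tested genes of that level 1.84% were called and 10.4% had an unadjusted p under 0.05, so 0 of 14 lies near the background. Intervals left out both a doubling and a halving for 19 of the 27 tested members.

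Genes that supply the donors did not pass the test. The share called over all tested genes was 2.19% (0.585% higher and 1.6% lower), and 11.4% had an unadjusted p under 0.05. Among 13 tested genes of UDP-glucuronic acid supply and turnover 0 were called in the authors' DESeq2 results, and 0 had an unadjusted p under 0.05. Ugp2, which makes UDP-glucose, had a log2 change of 0.18 ± 0.11 (SE), and the nucleotide sugar transporter Slc35d2 had 0.32 ± 0.22 (SE), in the authors' deposited table. Among 16 tested genes of PAPS supply and sulfate handling 0 were called by the same DESeq2 test, while 2 had an unadjusted p under 0.05. These were the phosphatases Bpnt2 and Bpnt1, which break down the spent donor, at 0.26 ± 0.09 and 0.16 ± 0.07 (SE) per the authors' deposited table. Among 10 tested genes of sulfatases and of the sulfatase-modifying factors Sumf1 and Sumf2, 1 fell. This was Arsb, a lysosomal sulfatase of glycosaminoglycans, at -0.76 ± 0.21 (SE) per the authors' deposited table. Arsb did not pass with a t distribution of 11 degrees of freedom or with the Benjamini-Yekutieli procedure.

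Of 15 tested transporters of conjugates 1 rose, 1 fell and 13 did not pass. Over all tested genes 0.585% were called higher and 1.6% lower, and 11.4% had an unadjusted p under 0.05. Abcc4, an export pump for sulfated and glucuronidated steroids, rose at 1.67 ± 0.24 (SE), and Slc22a7, an organic anion carrier, fell at -1.10 ± 0.26 (SE), in the authors' deposited table. With the t distribution Abcc4 passed and Slc22a7 did not. Regulators that are known to drive conjugation genes, among them the receptor genes Nr1i2 and Nr1i3, had 0 of 24 tested members called in the authors' DESeq2 results and 2 with an unadjusted p under 0.05. One of these was Foxa1, at 0.33 ± 0.15 (SE) per the authors' deposited table.

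Targets of transcription factors that are known to induce conjugation enzymes were counted in the same way. For comparison, 0.585% of all tested genes were called higher and 1.6% lower. An unadjusted p under 0.05 was found for 11.4% of them, and 51.9% had an estimate above 0. Of 16 tested NRF2 targets 5 rose and 0 fell, with a median log2 change of 0.55 and 16 estimates above 0. The genes that rose were Gstm3 at 1.79 ± 0.20, Gstm1 at 0.70 ± 0.12, Gsta4 at 0.66 ± 0.12, Ephx1 at 0.57 ± 0.13 and Srxn1 at 0.55 ± 0.14 (SE) per the authors' deposited table, of which 3 are glutathione transferases, a family of close paralogs that can share reads. With the t distribution 2 of the 5 passed, Gstm3 and Gstm1, and with Benjamini-Yekutieli 4, all but Srxn1. Of 5 tested targets of the aryl hydrocarbon receptor 0 were called in the authors' DESeq2 results and 1 had an unadjusted p under 0.05, the quinone reductase Nqo1 at 0.67 ± 0.21 (SE) per the authors' deposited table, a gene also in the NRF2 list. Nqo1 passed when the adjustment took in genes with a mean of at least 10 or of at least 100. The next smallest p was of Tiparp, at -0.15 ± 0.14 (SE) per the authors' deposited table. Of 12 tested targets of CAR and PXR 1 rose, Gstm3, and 1 fell, Aldh1a7, an aldehyde dehydrogenase, at -0.44 ± 0.12 (SE) per the authors' deposited table. Aldh1a7 did not pass with the t distribution or with Benjamini-Yekutieli. A list of other conjugation enzymes, which also took in some hydrolases, had 17 tested genes. Of these 1 rose, the epoxide hydrolase Ephx1 already counted among the NRF2 targets, and 1 fell, Baat. Baat, which joins bile acids to amino acids, had -0.55 ± 0.10 (SE) per the authors' deposited table. Neither Ephx1 nor Baat passed with the t distribution.

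Several members are sex-biased in mouse liver, so genes of that kind were set beside them. Among all tested genes 1.6% were called lower and 0.585% higher, and 51.9% had an estimate above 0. Of 16 tested male-biased genes 4 fell, 0 rose and 12 did not pass, and 7 of the 16 estimates were above 0. An unadjusted p under 0.05 was found for 8 of the 16, all 8 lower, against 6.21% of all tested genes lower. The genes that fell were Hsd3b5 at -2.54 ± 0.35, Selenbp2 at -1.68 ± 0.36, Cyp4a12b at -1.48 ± 0.31 and Nudt7 at -0.69 ± 0.20 (SE) per the authors' deposited table. With the t distribution 1 of the 4 passed, Hsd3b5. Of 5 tested female-biased genes 0 were called in the authors' DESeq2 results and 0 had an unadjusted p under 0.05, with 5 estimates above 0. The smallest p were of Cyp2a4 at 1.17 ± 0.84 and Cyp17a1 at 0.63 ± 0.50 (SE) per the authors' deposited table. Their part in the results above was not tested.

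**Figure D5:**
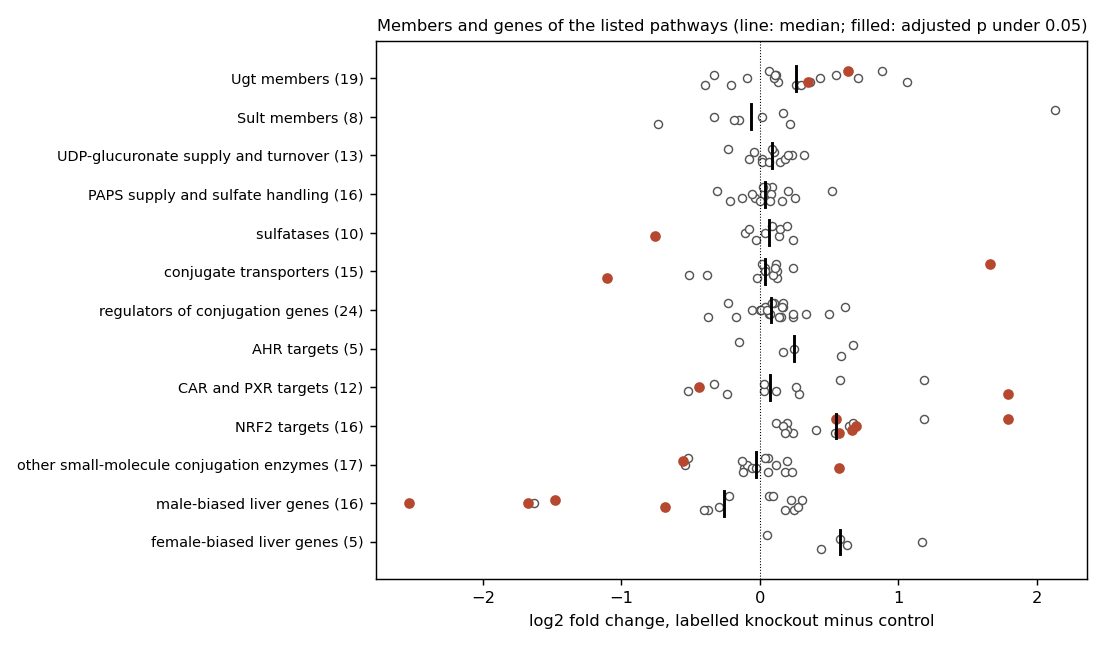
Log2 fold change (x axis, labelled knockout minus control) of each tested gene, by list (rows, with the number tested); filled points have an adjusted p under 0.05 and vertical lines are medians. The Ugt median lies at 0.26 and the Sult median at -0.07, and the NRF2 targets all lie right of 0.

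In bulk liver RNA fewer cells of a type and less RNA per cell cannot be told apart. Across all tested genes 2.19% were called, 11.4% had an unadjusted p under 0.05, and 51.9% had an estimate above 0. Of 8 hepatocyte markers 1 fell (Apoa1, at -0.48 ± 0.11 (SE) per the authors' deposited table) and the other 7 missed the threshold, with a median of 0.09 and a range from -0.48 to 0.22. Apoa1 did not pass with the t distribution. Of 10 Kupffer cell and macrophage markers 0 were called in the authors' DESeq2 results and 1 had an unadjusted p under 0.05, lower in livers labelled knockout. All 10 of their estimates were below 0, from -0.50 to -0.04, with a median of -0.27. Of 8 endothelial markers 0 were called by DESeq2 and 3 had an unadjusted p under 0.05, 2 higher and 1 lower, with 6 estimates above 0 and a median of 0.21. For 8 stellate, 4 cholangiocyte and 2 intestinal markers 0 were called by DESeq2 and 0 had an unadjusted p under 0.05, with medians of 0.16, 0.05 and 0.18. The intestinal markers tested were Apoa4 and Lgr5, with means of 14445 and 166 normalized counts in these livers. Vil1, Cdx2 and Muc2 had no adjusted p, so the intestinal median says little about intestinal cells. The 1 lymphocyte marker tested was not called and had an estimate of -1.10, with an unadjusted p under 0.05, and 0 of the 2 kidney markers in the table were abundant enough to be tested. Their part in the results was not tested.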

How the data were processed

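Values came from 1 table of results that the authors deposited for the whole series, with no values per sample. FastQC, STAR 2.6.0c and DESeq2 are the tools named, with mm10 as the genome, per the submitters' processing notes. How reads were counted, with which strand setting and annotation, is not given in the sources used here. Per the file headers, the level is an averaged signal, the mean of counts divided by size factors. The authors' effect is a deposited log2 fold change with its standard error. The deposited Wald score equals their ratio, and deposited p-values were adjusted by the authors (Benjamini-Hochberg) over 13335 genes, the lowest with a mean of 8.20. The table was not refitted. A gene passed at an adjusted p under 0.05, and intervals are normal intervals at 95%.

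The groups compared were worked out from 166 genes with 1 read in 1 library, whose means gave relative size factors of 0.912 to 1.11. For each of 96 readings these genes were fitted with a lightly penalised negative binomial regression. Of these, 2 gave the deposited values within 1e-05, both with fasted control as the reference: the genotypes within fasted livers (labelled knockout minus control), or feeding within control mice (refed minus fasted). The closest of the others differed by 4.37e-05 and were the same comparisons with the sign reversed, taken from the other group as reference. The direction thus rests on this gap, against a largest difference of 6.22e-15 for the 2 that matched. The first was taken, because the table is named for genotype and because Pck1 and G6pc, which feeding controls, had log2 fold changes of 0.01 ± 0.82 and -0.04 ± 0.39 (SE) in the authors' deposited table.

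Members and gene lists were chosen with earlier results of these data known. All tested members are named, with each called gene of a list, or the 2 of smallest p where none was called; 1 gene that this rule names is not reported here. Positions, shared exons and shared 50-base words came from GENCODE M21 (GRCm38), promoters from RefSeq (GRCm38.p6), in Python 3.11.15. Coding identity is identical positions over alignment columns. The code for adjusted p was tested on simulated data. The total of mean normalized counts was 1.80e+07, and depth per library is not known beyond the size factors. Alternatives changed the genes adjusted over, the distribution and procedure of the test, and the summary of a list.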

Additional observations from a re-analysis of the deposited data

How the results depend on the processing

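No paired analysis was possible because only fitted results per gene, not single livers, are in the table. Leave-one-out fits, other normalizations or count filters, and a fit restricted to fasted livers were therefore not run. No member's symbol repeats, so another choice of row gave no other value. The number of members called, 2 in all and 2 of the Ugt genes, was 1 and 1 when all genes with a p entered the adjustment, with a t distribution of 11 degrees of freedom, and with the Benjamini-Yekutieli procedure. In each of these Ugt2a3 passed and Ugt2b5 did not. At a threshold of 0.10 the count was 3, with Ugt2b34 added. The other settings gave 2, and the Sult count was 0 in all 7. Genes called over the pathway lists, 14, fell to 4 with the t distribution, where calls among all genes fell to 38, against 292, and to 127 with Benjamini-Yekutieli. The median log2 fold change of Sult genes, -0.07, was 0.019 over the 7 with a mean of at least 10. The medians of all members and of Ugt genes kept their sign in all 5 alternatives, between 0.11 and 0.17 and between 0.19 and 0.28. Depth limits the 6 members without an adjusted p, for which a change was not detectable.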
